A study of Rattus norvegicus with 32 samples.

Results

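Among 6 arrays of rat hippocampus, 2 carried the transcripts of choroid plexus, the tissue of the brain ventricles that secretes cerebrospinal fluid, and they are set here against the other 4. They were chosen by a measured value, a log2 intensity of *Ace* above 8. *Ace*, angiotensin-converting enzyme, stood at 8.85 on KO 2 and 8.76 on WT 2, the arrays inside the limit, and the highest array outside it was HET 1 at 5.56. The 2 arrays are 2 of the 32 in the series, which also holds striatum, olfactory bulbs, pituitary gland, spleen and bone marrow-derived macrophages. The hippocampus arrays came from adult female rats of a mixed DA/SD background, homozygous (Csf1r -/-, KO), heterozygous (Csf1r +/-, HET) or wild type (Csf1r +/+, WT) at the locus of the CSF1 receptor, with 2 arrays per genotype, numbered here as in the labels. The mutation was made by homologous recombination of an EGFP-PGK-Neo cassette in Dark Agouti embryonic stem cells, and Sprague–Dawley females served as embryo donors. The rats were not perfused, and brain regions were snap frozen. The labels do not tie a replicate number to a rat, so p-values measure only the spread between these arrays.

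Choroid plexus epithelium is a cuboidal, ciliated cell layer that develops from the roof plate of the neural tube and sits on a core of stroma and fenestrated vessels. It moves sodium, chloride, bicarbonate and water into the ventricle, carries folate, vitamins and metals across, and releases proteins such as transthyretin into the fluid. The plexus of the lateral ventricle is attached along the fimbria next to the hippocampus. *Ace* is not particular to it, since striatal neurons also express the gene. Of 91 genes listed for the epithelium, 61 were measured, 29 were not in the annotation used here and 1 was under the intensity filter. The label was set beside 58 of them, leaving out *Ace*, which chose the arrays, and *Slc4a5* and *Cldn2*, which passed the filter only through them. The mean log2 intensity of the 58 was 7.38 on KO 2 and 7.42 on WT 2, against 5.78 on KO 1, 5.97 on HET 1, 5.73 on HET 2 and 5.85 on WT 1. Of the 58, 40 lay higher on both choroid plexus arrays, 17 overlapped and 1, *Perp*, lay lower on both. Over all genes tested, 6.38% lay higher and 12.5% lower without overlap. The lists were chosen with earlier results of these data known, so these counts describe the arrays and do not test the label. In whole tissue, more cells of a type and more RNA per cell cannot be told apart.

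The genes that marked the 2 arrays include a homeodomain factor, *Otx2*, which choroid plexus needs to form. The promoters of 16 of the 20 genes with the largest differences were in the RefSeq table (build GRCr8, 250 bases before to 50 after the start, 300 in all). The core recognised by OTX2, TAATCC on either strand (GGATTA on the other), was present in 5 of the 16, in *Mfrp*, *Pla2g5*, *Ace*, *Cltrn* and *Vat1l*, against 7.17% of 33469 promoters of the same length. Of these 5, *Ace* chose the arrays and *Cltrn* passed the intensity filter only through them. *Slc4a5* and *Prr32*, 2 of the 16 without the core, also passed only through them, so the share describes a chosen set and was not tested. Over all the genes counted below as higher, the core was found in 15 of 117 matched promoters (12.8%). The promoters of *Ace*, which defined the arrays, and *Mfrp*, a membrane frizzled-related protein known from the retinal pigment epithelium, are shown in full because each has 1 such core, given in capitals. In *Ace* (chr10:91409879-91410178, + strand) its first base lay 38 bases before the start, and in *Mfrp* (chr8:53342284-53342583, + strand) 99 bases before it.
Ace: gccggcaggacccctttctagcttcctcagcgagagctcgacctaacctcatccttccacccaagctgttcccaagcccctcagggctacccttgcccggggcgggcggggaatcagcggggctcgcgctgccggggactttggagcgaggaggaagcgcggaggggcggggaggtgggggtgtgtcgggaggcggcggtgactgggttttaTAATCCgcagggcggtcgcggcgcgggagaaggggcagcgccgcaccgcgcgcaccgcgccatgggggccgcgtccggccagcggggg
Mfrp: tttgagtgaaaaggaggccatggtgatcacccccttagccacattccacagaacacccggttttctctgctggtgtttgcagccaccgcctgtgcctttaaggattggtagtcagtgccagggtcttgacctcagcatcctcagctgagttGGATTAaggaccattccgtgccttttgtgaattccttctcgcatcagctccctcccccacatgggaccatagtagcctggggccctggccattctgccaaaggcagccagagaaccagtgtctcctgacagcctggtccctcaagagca
A forkhead core, TGTTTAC or GTAAACA, was in none of the 16 (0 of 16, against 3.78% of all promoters). Part of the X-box bound by RFX factors, GTTGCC or GGCAAC, was in 2, *Htr2c* and *Aqp1*, against 12.2% of all. Matches of letters are a description and not evidence of binding.

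Over 10663 genes, 158 (1.48%) had a log2 intensity higher by 1 or more on the choroid plexus arrays with no overlap between the 2 and the 4 arrays, and 44 (0.413%) were lower by as much. At any size, 680 genes (6.38%) were higher and 1332 (12.5%) lower without overlap. Since *Ace* chose the arrays, these counts describe the contrast and were not tested. Of the 158, 19 passed the intensity filter of 20 only through the choroid plexus arrays. The difference was 3 or more for 22 genes and 2 or more for 46 of the 158, whereas only 1 gene, *Alb*, was lower by 2 or more. For 58 of the 158, and 9 of the 20 largest, all 4 other arrays lay below an intensity of 20, so their differences depend on values in the background. With the other arrays set to 20 there, the difference remained 1 or more for 114 of the 158, with a median of 1.23 over the 158, against 1.498 as measured. The 158 genes made up 1.91% of the summed intensity on KO 2 and 1.69% on WT 2, against 0.28% on KO 1, 0.40% on HET 1, 0.37% on HET 2 and 0.34% on WT 1.

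Secreted proteins came first. *Kl*, which encodes klotho, the coreceptor for FGF23 that choroid plexus also sheds, was measured at 10.08 on KO 2 and 10.12 on WT 2, against 3.45 on KO 1, 3.69 on HET 1, 3.76 on HET 2 and 3.68 on WT 1. The 4 other arrays lay below an intensity of 20, so the difference of 6.45 is given as at least 54.8-fold, with the other arrays set to 20. *Ttr*, transthyretin, the carrier of thyroxine and retinol-binding protein, stood at 12.43 on KO 2 and 12.50 on WT 2, against 6.58 on KO 1, 8.73 on HET 1, 7.33 on HET 2 and 7.35 on WT 1. The highest value of any probe set on a hippocampus array was 12.60 to 12.65, so *Ttr*, with a difference of 4.97, was close to the top of the scale on both arrays. *Sostdc1*, a secreted antagonist of BMP and WNT signalling, had 9.996 on KO 2 and 9.88 on WT 2, against 3.47 on KO 1, 4.89 on HET 1, 4.40 on HET 2 and 4.38 on WT 1. In the list of secreted proteins, 10 of 16 genes were measured, 5 were higher by 1 or more without overlap and 2 more were higher by less, with a median difference of 1.29 against -0.12 over all genes tested. *Igfbp2* and *Bmp7* differed by 1.96 and 1.87, and *Tf*, transferrin, which oligodendrocytes also make, by 0.70. *Cp*, *Lbp* and *Bmp6* overlapped between the arrays.

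Ion and water transport held the largest number of such genes. *Kcnj13*, the apical potassium channel Kir7.1, had 10.17 on KO 2 and 10.61 on WT 2, against 4.39 on KO 1, 4.70 on HET 1, 4.77 on HET 2 and 4.24 on WT 1. *Clic6*, of the chloride intracellular channel family, had 9.92 on both choroid plexus arrays, against 3.90 on KO 1, 4.72 on HET 1, 3.59 on HET 2 and 4.63 on WT 1. *Slc4a5*, the electrogenic sodium bicarbonate cotransporter of the apical membrane, had 9.27 on KO 2 and 9.06 on WT 2, against 3.85 on KO 1, 3.78 on HET 1, 3.26 on HET 2 and 3.30 on WT 1. *Slc4a5* was below 20 on all 4 other arrays and was at least 28.7-fold higher. *Kcnj13* reached 20 on 3 of the other arrays and *Clic6* on 2, and with the rest set to 20 they were 57.5-fold and 42.9-fold higher. *Aqp1*, the water channel of the apical membrane, had 7.08 on KO 2 and 6.58 on WT 2, against 3.27 to 3.94 on the other 4. Its difference was 3.25, or 2.51 with the other arrays set to 20. The potassium channel subunits *Kcne2* and *Kcnq1* (2.45 and 1.77), the calcium channel *Trpv4* (2.61) and the carbonic anhydrase *Car14* (1.79) were also higher without overlap. Of 13 measured genes in this list of 19, 8 were higher by 1 or more, 1 of which (*Slc4a5*) passed the filter only through these 2 arrays, and 3 by less (*Slc12a2*, *Car2* and *Fxyd1*, the last at 0.79). *Atp1b1*, a subunit of the sodium pump that neurons also make in quantity, did not separate them, with 11.82 on KO 2 and 11.84 on WT 2, against 11.83 to 11.91.

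Solute carriers and receptors followed. *Folr1*, the folate receptor that takes folate into the fluid, had 8.41 on KO 2 and 8.19 on WT 2, against 3.96 on KO 1, 4.29 on HET 1, 3.77 on HET 2 and 3.99 on WT 1. Its difference was 4.30, or 3.98 with the other arrays set to an intensity of 20. Among the 13 measured genes of the list of 20, 6 were higher by 1 or more, namely *Folr1*, the sulfate transporter *Slc13a4* (2.80), the metalloreductase *Steap1* (2.63), the glucose transporter *Slc2a12* (2.40), the retinol receptor *Stra6* (1.62) and the copper transporter *Slc31a1* (1.21). *Slc22a8* and *Slco1c1*, which vessels of the brain also express, differed by 0.87 and 0.60, and *Slc15a2* did not separate the arrays. Among 5 measured receptors and enzymes of a list of 9, *Ace* and *Htr2c* were higher. *Htr2c*, the serotonin 2C receptor, had 9.58 on KO 2 and 9.80 on WT 2, but the other 4 were unequal, with 5.05 on KO 1, 7.04 on HET 1, 4.71 on HET 2 and 7.43 on WT 1. The insulin, IGF1 and vasopressin 1a receptors (*Insr*, *Igf1r*, *Avpr1a*) overlapped.

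**Figure D1:**
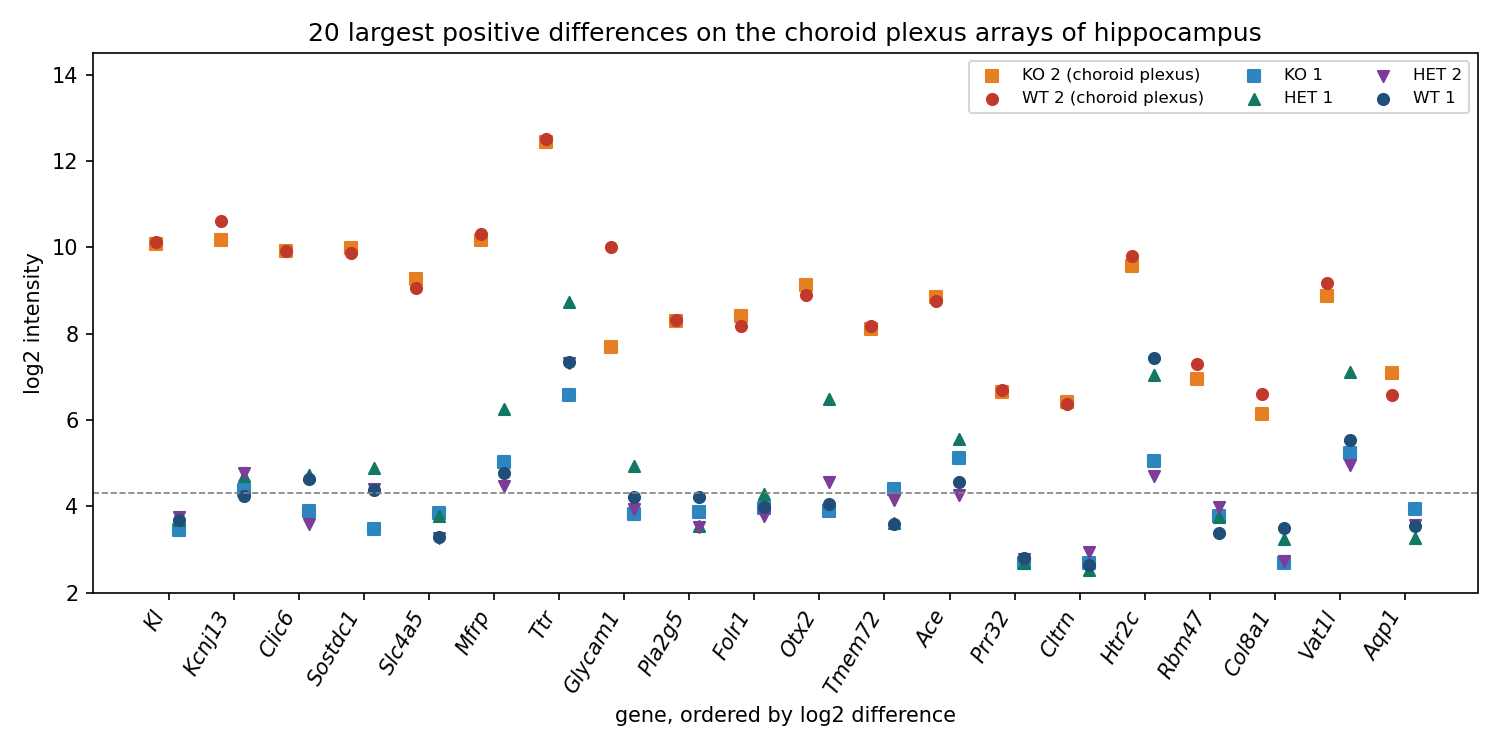
Log2 intensity (y axis) of the 20 genes with the largest positive difference (x axis) on each of the 6 hippocampus arrays, with the choroid plexus arrays KO 2 and WT 2 drawn to the left of the other 4 within each gene and an intensity of 20 as a dashed line. For *Glycam1*, KO 2 (7.69) and WT 2 (10.02) lie apart, while for *Otx2*, *Ttr*, *Mfrp*, *Vat1l* and others HET 1 is the highest of the 4 other arrays.

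Genes of epithelial junctions and of plexus patterning were mixed. *Cldn2*, the claudin of leaky, water-permeable junctions, had 6.28 on KO 2 and 6.12 on WT 2, against 2.73 to 3.22 on the others, and *Cldn1* differed by 2.64. *Tmem72*, a transmembrane protein, had 8.10 on KO 2 and 8.18 on WT 2, against 4.40 on KO 1, 3.63 on HET 1, 4.14 on HET 2 and 3.59 on WT 1. In total 6 of 15 measured junction and epithelial genes were higher by 1 or more, with *Cldn2* measured only through the choroid plexus arrays. *Epcam* and *Cdh1*, adhesion molecules of many other epithelia, overlapped and stood at 2.58 to 4.02 on all 6 arrays, below an intensity of 20. Of the factors of the roof plate and of multiciliated cells, *Otx2* had 9.13 on KO 2 and 8.89 on WT 2, against 3.90 on KO 1, 6.49 on HET 1, 4.58 on HET 2 and 4.05 on WT 1. *Lmx1a*, which specifies the roof plate, was higher by 1.87, *Gmnc*, geminin coiled-coil, which starts the multiciliated programme, by 1.5 and *Msx1* by 1.01, so that 4 of 5 measured factors of a list of 10 passed.

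Other genes with large differences had no place in the lists. *Pla2g5*, a secreted phospholipase A2, had 8.30 on KO 2 and 8.32 on WT 2, against 3.53 to 4.23. *Mfrp*, whose promoter is shown above, had 10.17 on KO 2 and 10.31 on WT 2, against 5.02 on KO 1, 6.26 on HET 1, 4.48 on HET 2 and 4.78 on WT 1. *Cltrn*, collectrin, known in kidney as a partner of amino acid transporters, had 6.42 on KO 2 and 6.36 on WT 2, against 2.54 to 2.94. Others of the 20 were *Prr32* (3.93), the RNA-binding protein gene *Rbm47* (3.41), and *Vat1l* (3.32). *Prr32* and *Rbm47* were below an intensity of 20 on the other arrays. With those set to 20 they differed by 2.35 and 2.81, while *Vat1l* stayed at 3.32. Altogether 121 of the 158 genes were in none of the 21 lists of 265 genes. Some of these are named here after their values were seen, including the growth factor midkine (*Mdk*, 2.88), the lipid transporter *Abca4* (2.89), the secreted frizzled-related protein *Sfrp1* (1.70), the cadherin *Cdh3* (2.36) and the paraoxonase *Pon1* (1.89). *Pon1* stood at 4.76 on WT 2 but at 3.77 on KO 2, below an intensity of 20. The gene *Mir204*, also chosen after its value was seen, had 5.30 on KO 2 and 5.13 on WT 2, against 4.31 on KO 1, 4.16 on HET 1, 3.85 on HET 2 and 3.14 on WT 1. Like *Abca4*, *Mir204* passed the intensity filter only through the choroid plexus arrays. Its mature form (chr1:229743493-229743514, + strand, GRCr8) is shown with its seed, bases 2 to 8, in capitals, and the probe set named for the gene does not measure the mature form by itself.
rno-miR-204-5p: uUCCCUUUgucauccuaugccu

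Genes listed for cilia, stroma and vessels of the plexus differed between the arrays to unequal degrees. In the cilia list 4 of 13 measured genes were higher by 1 or more (*Rsph4a* 2.15, *Cfap126* 2.02, *Ccdc40* 1.29, *Enkur* 1.16) and 3 by less, and the list averaged 6.13 on KO 2 and 5.63 on WT 2, against 4.96 to 5.13. Among 30 measured genes of the cilia and flagella associated protein family, counted after the values were seen, 6 were higher by 1 or more. Of these, *Cfap100* and *Cfap95* passed the intensity filter only through the choroid plexus arrays. Over all genes tested, 1.48% were higher by 1 or more without overlap. *Cfap126* and *Cfap100* stood higher on KO 2 than on WT 2 by 1.06 and 1.26. Of 16 stromal genes, *Col8a1*, a chain of collagen VIII, differed by 3.33 and *Ogn*, osteoglycin, by 1.79. With the other arrays set to an intensity of 20, *Col8a1* differed by 2.05. Among the 16, 10 overlapped and the median difference was 0.28. The main fibrillar collagens *Col1a1*, *Col1a2* and *Col3a1* overlapped between the arrays, with *Col1a1* at 5.43 on KO 2 and 5.35 on WT 2, against 4.78 to 5.65. *Plvap*, the diaphragm protein of fenestrated vessels, had 4.57 on KO 2 and 4.21 on WT 2, against 4.12 on KO 1, 3.61 on HET 1, 3.18 on HET 2 and 3.18 on WT 1. Its difference of 0.86 was the largest of the 4 measured genes of fenestrated endothelium, whose median was 0.81. *Plvap* lay below the intensity filter on every hippocampus array except KO 2. *Esm1* (0.85) overlapped and stood at 2.43 to 3.89, below the filter throughout. *Flt1* (0.26) also overlapped. *Emcn* (0.77) had 7.63 on KO 2 and 7.18 on WT 2, against 6.24 to 6.85. The median of 0.81 thus rests partly on values in the background. The median of 7 genes of barrier endothelium was -0.17.

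**Figure D2:**
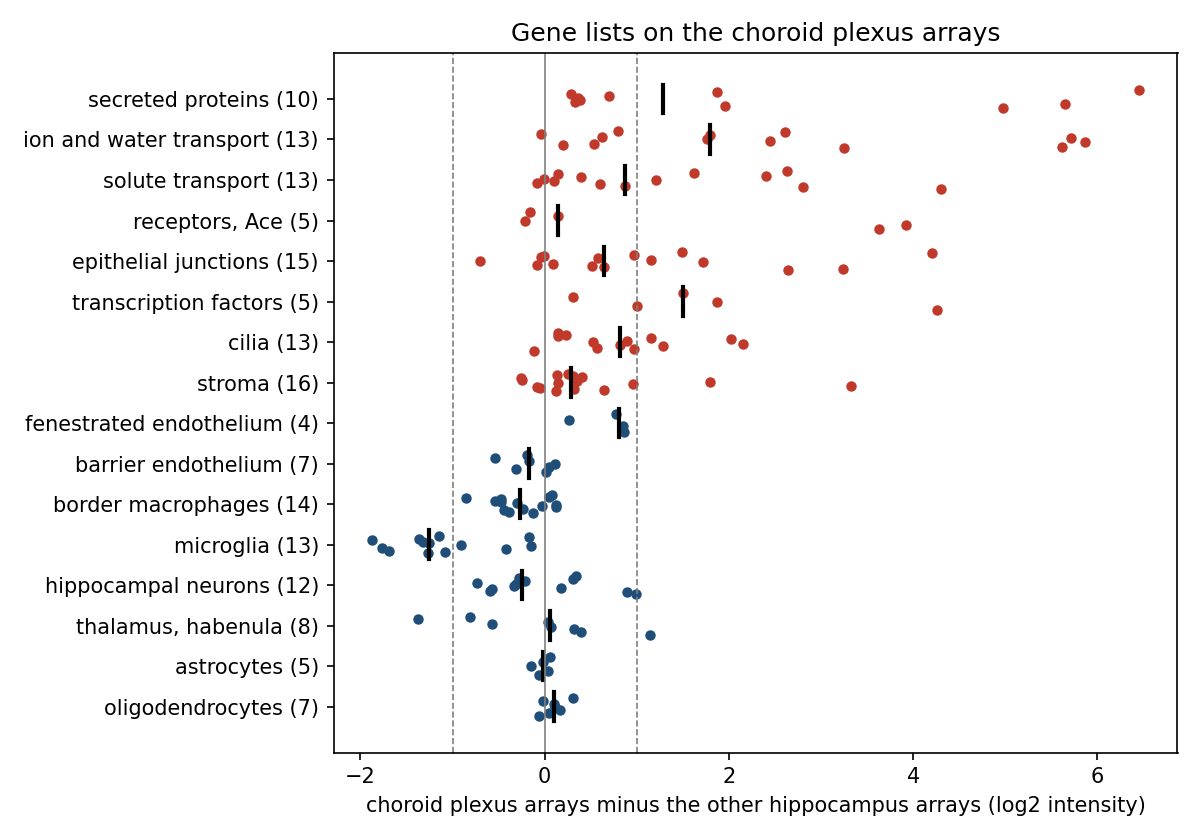
Difference in log2 intensity between the choroid plexus arrays and the other 4 hippocampus arrays (x axis) for each measured gene of 16 lists (rows, with the number measured), with the median of each list as a black bar and dashed lines at -1 and 1. The lists of the plexus and of cilia reach from -0.70 to 6.45, and the microglia list has a median of -1.26, where 1 of the 2 choroid plexus arrays is from KO.

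Genes of hippocampal tissue itself had medians near that of all genes. Members lay on either side of 0, except in the general neuron list, where all 7 were negative (-0.48 to -0.06). The medians were -0.01 for 5 astrocyte genes, 0.10 for 7 oligodendrocyte genes, -0.25 for 12 genes of hippocampal neurons and -0.36 for 7 general neuron genes, beside -0.12 over all genes tested. Of the 12 genes of hippocampal neurons, 2 were higher and 5 lower without overlap, *Wfs1* by 0.99 and *Neurod2*, a neurogenic factor, by -0.73 at the ends. Of the 7 general neuron genes, 2 were lower without overlap, and over all genes 6.38% were higher and 12.5% lower. The red cell genes measured here, 3 in number, averaged 2.90 to 3.48 on the 6 arrays, below an intensity of 20. Genes of the pineal gland, which lies near the dorsal plexus and also uses *Otx2*, averaged 3.68 on KO 2 and 3.57 on WT 2, against 3.51 to 3.66, all below 20.

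Lower genes were fewer, and KO 2 weighed more in them. Of the 44, the drop on KO 2 against KO 1 was larger than that on WT 2 against WT 1 for 42, and only 9 were lower by 1 or more in both pairs. The gene with the largest drop was *Alb*, serum albumin, with 5.35 on KO 2 and 5.05 on WT 2, against 8.09 on KO 1, 10.29 on HET 1, 5.67 on HET 2 and 7.35 on WT 1. *Serpina1* and *Gc*, which like *Alb* are liver genes, had differences of -1.44 and -1.36, and all 3 were highest on HET 1. *Cst6*, a cystatin, had 5.70 on KO 2 and 7.53 on WT 2, against 8.75 on KO 1, 7.88 on HET 1, 7.75 on HET 2 and 7.76 on WT 1, so the difference of -1.42 came mainly from the KO arrays. *Kctd4*, the adhesion protein gene *Flrt3*, the ephrin receptor *Epha8*, the netrin receptor *Unc5d*, *Plcxd2*, the ghrelin receptor *Ghsr* and the glutamate receptor *Grm2* were likewise highest on KO 1 and differed by -1.53 to -1.31. The remaining genes of the 15 were the GnRH receptor *Gnrhr* (-1.90), the glycosyltransferase *Mgat4c* (-1.67), the efflux pump *Abcb1b* (-1.58) and the WNT agonist *Rspo3* (-1.58). *Mgat4c* had 4.13 on KO 2 and 5.66 on WT 2, against 5.85 to 7.12. Without WT 2 the number of lower genes became 275, without HET 2 it was 78, and without KO 2 it was 43 with 10 of the 44 among them. The CA1 genes *Wfs1* and *Fibcd1* stood at 11.16 and 8.32 on KO 2, against 8.59 and 5.17 on KO 1, and the dentate genes *Prox1* and *C1ql2* at 7.21 and 7.76 on KO 2, against 8.34 and 8.89 on KO 1. These were picked after their values were seen, and others of the list did not follow, with *Spink8* at 2.48 on KO 2, against 3.48 on KO 1, and *Dsp* at 4.50 on KO 2, against 4.51 on KO 1. The part of the dissected subregions in these differences was not tested.

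Since the 158 genes were chosen for no overlap, all of them were higher within each genotype, and only the sizes of the differences are described. The difference KO 2 minus KO 1 was 1 or more for 363 genes (3.4%) and WT 2 minus WT 1 for 196 (1.84%), and both held for 119 (1.12%), against 18 (0.169%) for which both were -1 or less. Of the 158, 112 were among the 119. Across the 10663 genes the 2 differences correlated with a Pearson r of 0.447, and with 0.194 after the 158 and 44 genes were removed. The genes are not independent replicates, and each difference rests on 2 arrays. Directly, KO 2 minus WT 2 had a median of 0.11 over the 158 genes (quartiles -0.13 and 0.30), beside -0.20 over all genes. It exceeded 1 in either direction for 5 of the 158, beside 383 of all genes (3.59%). KO 1 minus WT 1, both outside the limit on *Ace*, did so for 12 of the 158, beside 284 of all genes (2.66%). The 5 genes of KO 2 minus WT 2 were *Clic3* (1.31), *Cfap100*, *Cfap126*, *Cox8b* (-1.15) and *Glycam1* (-2.32).

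For the 20 largest, the added intensity of KO 2 over KO 1 was 0.190 to 1.43 times that of WT 2 over WT 1, with a median of 0.993. *Kl* gained 1070 intensity units on KO 2 and 1097 on WT 2, and *Pla2g5* gained 301 on each. *Glycam1*, a mucin-like ligand of L-selectin, was the lowest of the 20 ratios, with 7.69 on KO 2 and 10.02 on WT 2, against 3.82 on KO 1, 4.95 on HET 1, 3.94 on HET 2 and 4.21 on WT 1. The next lowest was *Kcnj13* at 0.732, and *Aqp1* was the highest.

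**Figure D3:**
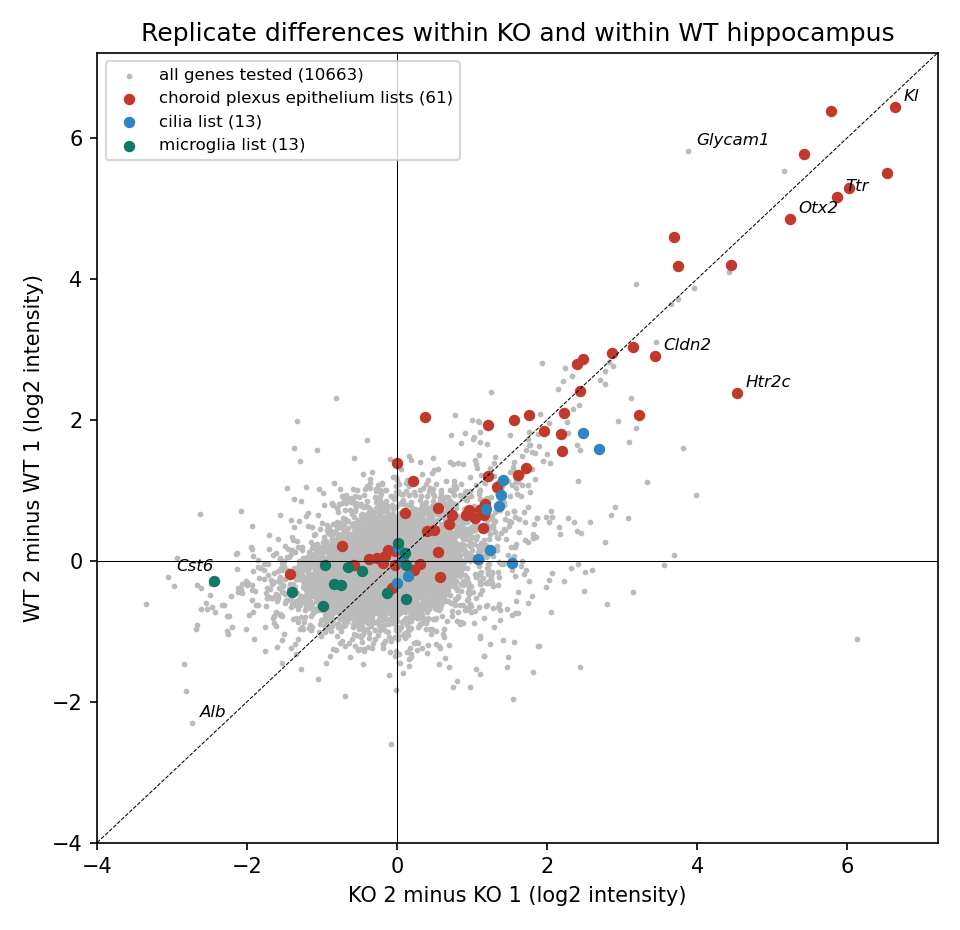
Difference in log2 intensity WT 2 minus WT 1 (y axis) against KO 2 minus KO 1 (x axis) for the 10663 genes, with the genes of the choroid plexus epithelium lists, the cilia list and the microglia list coloured and equality as a dashed line. *Kl* has 6.63 in KO and 6.44 in WT, *Glycam1* lies above the line with 3.87 in KO and 5.81 in WT, and *Cst6* has -3.05 in KO and -0.24 in WT.

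The other 4 arrays were not alike. HET 1 was the highest of them for 66 of the 158 genes (41.8%), beside 25.6% of all genes. Among the 20 it was the highest for *Clic6*, *Sostdc1*, *Mfrp*, *Ttr*, *Glycam1*, *Folr1*, *Otx2*, *Ace* and *Vat1l*, but not for *Kl*, which was 3.69 there, nor *Aqp1* (3.27). HET 1 also carried genes of the habenula, next to the third ventricle, with *Chrna3*, a nicotinic receptor subunit, at 9.46 and *Gpr151* at 7.03, against 3.26 to 6.41 and 2.31 to 3.06 on the other 5 arrays. Their part in the *Otx2* and *Mfrp* levels was not tested. On KO 2, *Slc17a6*, the glutamate transporter of thalamic neurons, was 8.21, against 5.81 on WT 2. It was 7.81 on HET 1 and 4.53 to 5.74 on KO 1, HET 2 and WT 1. Of the 8 measured genes of its list, *Gbx2*, *Tac1* and *Chrna3* were also higher on KO 2 than on WT 2. *Nwd2*, *Chrnb3*, *Tac3* and *Gpr151* were not.

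Macrophage genes were read beside the plexus genes, because the plexus stroma and the ventricular surface hold macrophages of their own. Background for this is that stromal and epiplexus macrophages, unlike microglia, express *Mrc1*, *Lyve1* or MHC class II. *Mrc1* and *Cd163* were not in the annotation used. *Lyve1* had 4.32 on KO 2 and 4.90 on WT 2, against 3.26 on KO 1, 5.52 on HET 1, 5.56 on HET 2 and 4.60 on WT 1. *Cd74*, the invariant chain of MHC class II, had 5.92 on KO 2 and 8.78 on WT 2, against 6.27 on KO 1, 8.02 on HET 1, 7.44 on HET 2 and 8.62 on WT 1. Neither gene separated the choroid plexus arrays from the others, and *Cd74* was low on both KO arrays. Over 14 measured genes of border macrophages the mean was 4.44 on KO 2 and 5.37 on WT 2, against 4.48 on KO 1, 5.35 on HET 1, 5.34 on HET 2 and 5.44 on WT 1. The change with the plexus was -0.07 in KO (median of KO 2 minus KO 1) and -0.15 in WT. None of the 14 was higher without overlap on the choroid plexus arrays and 1, *Clec12a*, was lower. Over all genes tested, 6.38% were higher and 12.5% lower without overlap. *Clec12a* stood at 3.30 to 3.88 on the hippocampus arrays, below the intensity filter on each, so its difference lies in the background.

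On the 18 arrays of the other regions, which the rule did not use, most of the 20 genes stayed below the choroid plexus arrays. None of the 18 reached the lower of KO 2 and WT 2 for 18 of the 20 genes, the exceptions being *Col8a1* on 3 arrays and *Aqp1* on 1. *Kl* was below 20 on 16 of them and at most 4.93. Of the 158 genes, 19 are below 20 on all 18 arrays by the way they passed the filter. Of the remaining 139, 58 were not reached by any of the 18 arrays and 1, *Glycam1*, was below 20 on all. In striatum, *Ace* was 7.04 to 8.31 and above the limit of 8 on 3 of 6 arrays, *Htr2c* was 8.33 to 9.50 and *Vat1l* 8.08 to 8.62, while *Kl*, *Slc4a5* and *Folr1* lay below 20 on all 6. The limit on *Ace* therefore marks these 2 arrays within hippocampus and would not do so in striatum.

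The arrays labelled olfactory bulbs and pituitary gland are named by their labels, although those labelled olfactory bulbs had *Gh1*, growth hormone, at 12.68 to 12.91 and those labelled pituitary gland had *Th*, tyrosine hydroxylase, at 9.12 to 10.22. On arrays labelled olfactory bulbs *Sostdc1* was 8.34 to 9.77 and *Otx2* 5.78 to 6.85. On arrays labelled pituitary gland *Kcnj13* was 5.12 to 8.11, and *Ttr* was 3.72 to 9.06 with its highest value on WT 2.

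**Figure D4:**
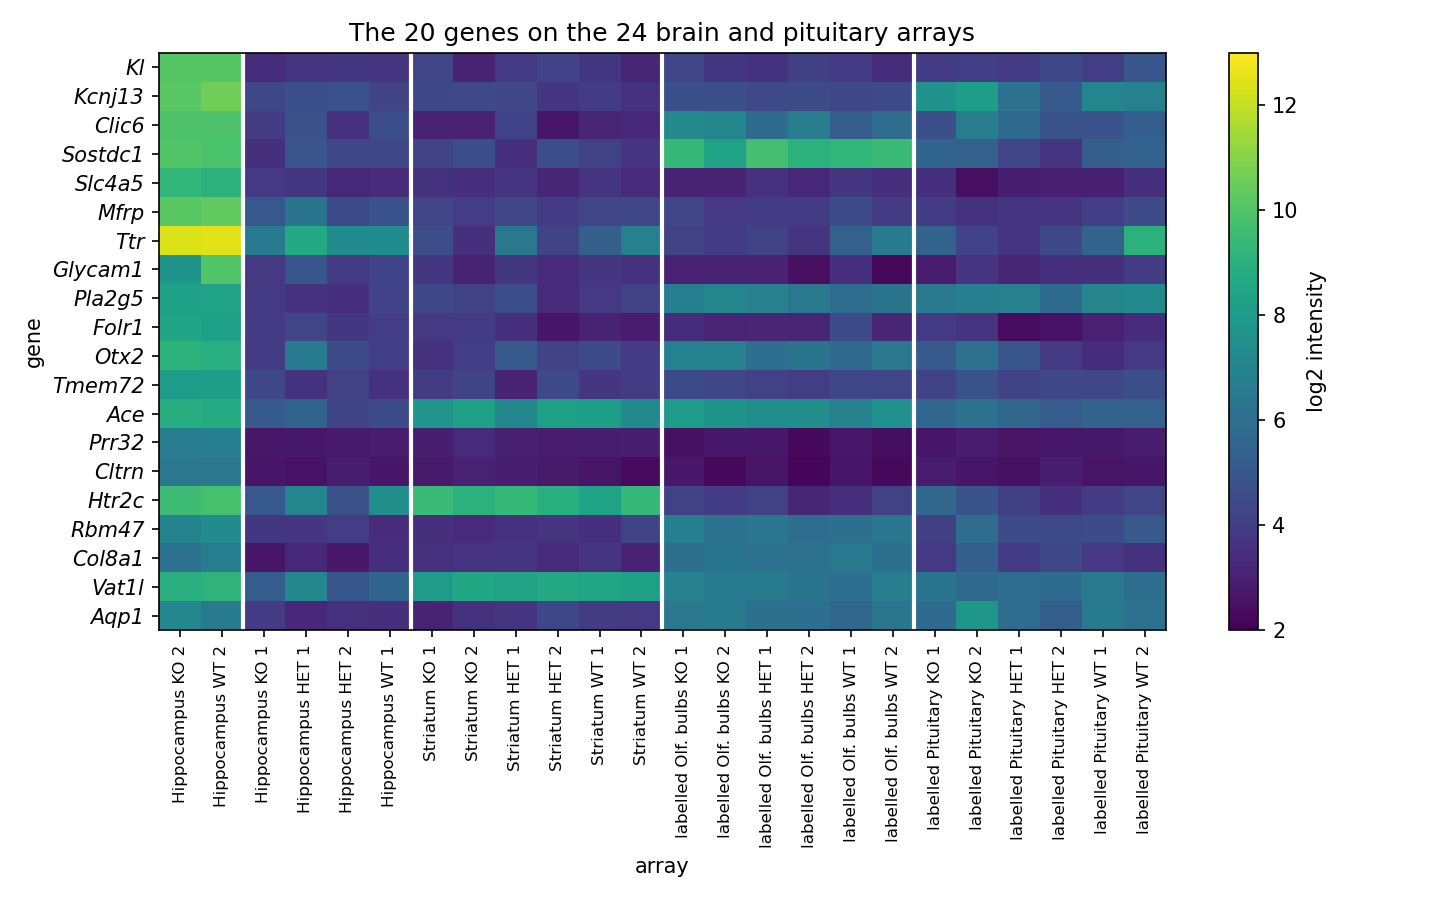
Log2 intensity (colour) of the 20 genes (rows) on the 24 brain and pituitary arrays (columns), with the 2 choroid plexus arrays at the left, the 4 other hippocampus arrays next and the 18 arrays of the other regions by their labels to the right. The row of *Kl* is at most 4.93 outside the 2 arrays, and the rows of *Ace*, *Htr2c* and *Vat1l* are also bright in striatum.

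The genotype contrasts were tested, since the 2 arrays were chosen without regard to genotype and 1 lies in KO and 1 in WT. limma compared KO with WT hippocampus in 1 fit of the 24 brain and pituitary arrays, with an adjusted p below 0.05 as the limit. *Csf1r*, the targeted gene, had 2.73 on KO 2 and 3.39 on KO 1, against 8.34 on WT 2 and 8.43 on WT 1, with 7.76 on HET 1 and 7.65 on HET 2. It fell by 5.33 on the log2 scale (SE 0.204, adjusted p = 2.73e-10). Of all genes 64 were lower (0.6%) and 1, *Clec2g*, was higher (0.00938%), at 1.24 (SE 0.263, adjusted p = 0.0419). The 158 genes were chosen for a gap between the 2 arrays of KO and between those of WT, which widens their SE (a median of 0.546, against 0.219 over all genes), so the absence of a call says nothing about them. None of the 158 genes was called by limma, 1 had an unadjusted p below 0.05, and the t-test named in the methods called none before or after adjustment. *Kl* differed by -0.14 (SE 1.69, adjusted p = 0.988), *Ttr* by -0.42 (SE 1.67, adjusted p = 0.962) and *Glycam1* by -1.36 (SE 1.31, adjusted p = 0.819).

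With the class of the array (choroid plexus or not) in the fit, the SE of the 20 genes was smaller, as their choice by this class makes it. The median SE of KO minus WT was 0.401 with the class and 1.14 without it, whereas over all genes it was 0.204 with it and 0.219 without it. The differences themselves were the same, since the class is balanced between KO and WT. With the class, 72 genes were lower (0.675%) and 3 higher (0.0281%), and 64 genes were shared between the 75 calls with it and the 65 without it. Of the 158 genes, 0 were called by limma with the class and 9 had an unadjusted p below 0.05. *Glycam1* had an SE of 0.480, an unadjusted p of 0.0132 and an adjusted p of 0.329.

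**Figure D5:**
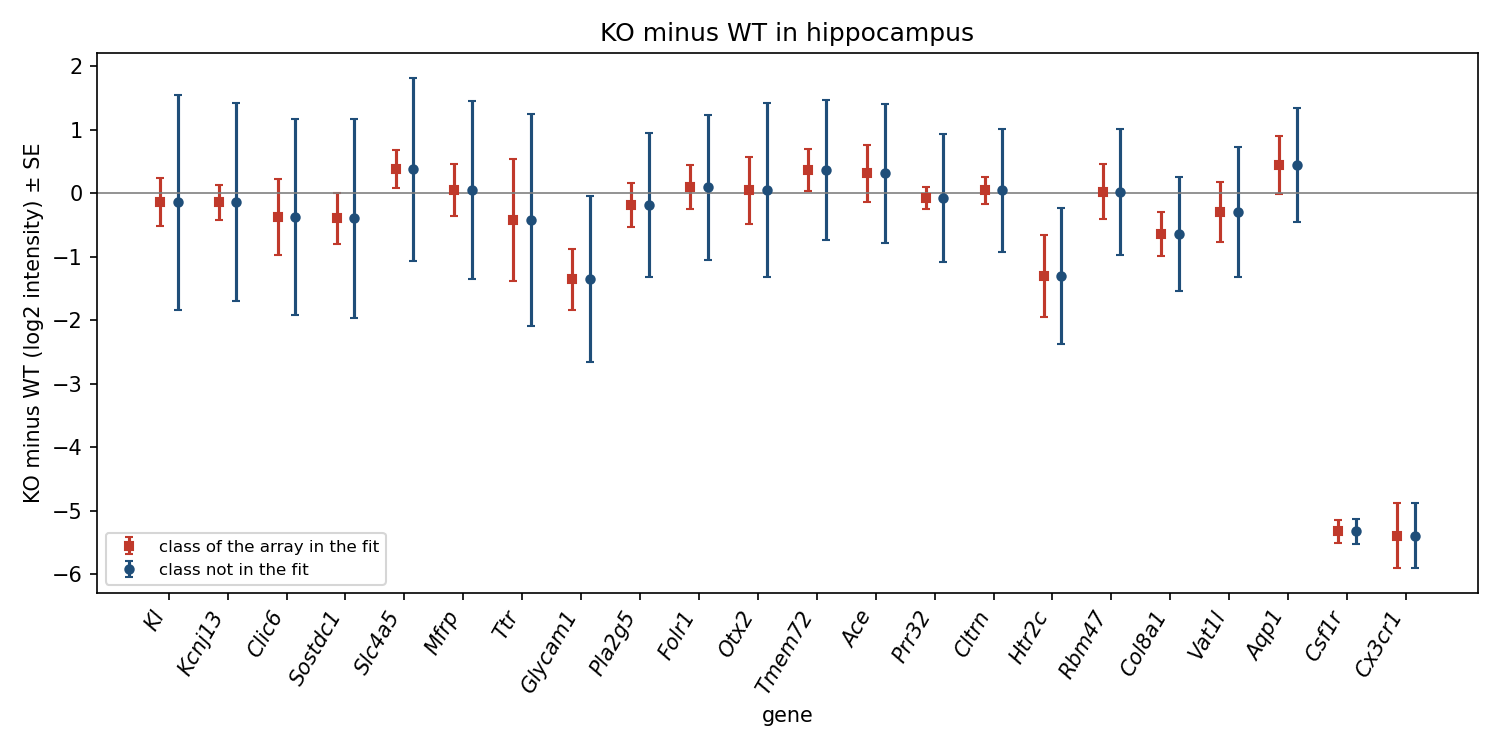
KO minus WT difference in log2 intensity in hippocampus (y axis, with SE as bars) for the 20 genes, *Csf1r* and *Cx3cr1* (x axis), with the class of the array in the limma fit (squares) and without it (circles). The differences coincide, and the median bar over the 20 genes is 0.401 with the class and 1.14 without it.

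Leaving out KO 2, or both choroid plexus arrays, left KO 1 as the only KO array, and 6 of the 158 are named for a low KO 1. Without KO 2, KO minus WT was -3.48 for *Adgrl2*, -2.63 for *Htr1b* and -2.37 for *Mpped1*. It was -2.26 for *Pou3f1*, -2.23 for *Tlr3* and -1.73 for *Plxnd1*. Without both choroid plexus arrays it was -3.01 for *Adgrl2* and -1.42 for *Plxnd1*. *Adgrl2* entered the 158 with a KO 2 minus KO 1 of 3.98, against 0.93 for WT 2 minus WT 1. A low KO 1 in these genes is thus partly set by their choice. In these fits KO 1 stands alone and is assumed to vary like the other groups. *Adgrl2*, an adhesion receptor of CA1 neurons in mice, had 8.01 on KO 2 and 7.97 on WT 2, against 4.03 on KO 1, 6.995 on HET 1, 6.86 on HET 2 and 7.04 on WT 1, so that KO 1 alone was low. Without KO 1, which leaves KO 2 alone for KO, *Pcp4l1* was higher in KO by 1.10. It is one of the 158 genes, chosen as high on KO 2, so a rise here is partly set by that choice.

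Against littermates (HET and WT), the choroid plexus arrays are 1 of 2 KO and 1 of 4 littermate arrays. The ratio of mean intensities of KO to littermates was 1.5 or more for 60 of the 158 genes, beside 149 of all genes (1.4%), and its median over the 20 largest was 1.79. It was 1.90 for *Kl*, 1.72 for *Ttr* and 0.402 for *Glycam1*. The ratio of KO to WT, where the arrays are balanced, had a median of 0.976 over the same 20 genes and was 1.5 or more for 5 of the 158, beside 172 of all genes (1.61%). No HET array was of this class, and HET to WT had a median of 0.103 over the 20 and was 0.5 or less for 69 of the 158, beside 86 of all genes (0.807%). The littermate contrast is thus not independent of the choice of arrays. By limma, 78 genes were lower in KO than in littermates (0.732%) and 3 higher (0.0281%). None of the 158 was called and 5 had an unadjusted p below 0.05. With the class in the fit, limma called 75 of all genes lower (0.703%) and 2 higher (0.0188%). Among the 158 it called 1, *Adgrl2*, lower (-1.81, SE 0.389, adjusted p = 0.0476). As given above, *Adgrl2* was low on KO 1 alone, which its choice among the 158 partly sets. Without KO 1, the KO group was KO 2 alone, set against littermates with 1 choroid plexus array of 4. The 158 genes were chosen as high on KO 2, so a rise here follows from that choice, as for *Kcne2* (2.19) and *Cdh3* (2.19).

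The microglial genes were read in the same fits. Of 13 measured, 12 fell in KO against WT without the class and with it, and the exception was *Sall1*. *Cx3cr1*, the fractalkine receptor, had 2.57 on KO 2 and 3.32 on KO 1, against 8.17 on WT 2 and 8.51 on WT 1, and fell by 5.40 (SE 0.513, adjusted p = 1.86e-05). Of the border macrophage genes, *Folr2* fell in KO against WT by 1.22 (SE 0.240, adjusted p = 0.0235, and 0.0154 with the class). Against littermates *Folr2*, *Lyve1*, *Stab1* and *Cd68* were lower, and *Lyve1* fell by 1.36 (SE 0.260, adjusted p = 0.0168).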

How the data were processed

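Expression in 32 samples was read on Affymetrix Rat Gene 2.1 ST arrays. The authors processed the scans with RMA in R/Bioconductor (version not given in the sources used here) and deposited linear intensities of 36685 probe sets. The 24 brain and pituitary arrays shared 8 to 132 exact values per pair and 0 to 1 with the 8 others, so they were analysed alone, on the log2 scale. Of the probe sets, 14824 had 1 gene symbol, 829 several and 21032 none. A gene was its probe set with the highest mean, kept if at least 1 of the 24 arrays reached an intensity of 20 (10663 genes). The number of arrays limits the precision. Median intensity was 18.9 to 21.0 on the hippocampus arrays.

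The choroid plexus contrast (mean log2 of the 2 arrays minus that of the 4) was not tested. limma 3.58.1 in R 4.3.3 fitted 12 group means, with Benjamini-Hochberg adjustment over all genes. Named were the 20 largest positive and 15 largest negative differences without overlap, members of the marker lists and list genes called in KO. Members and lists were chosen with earlier results of these data known. Python 3.11.15, pandas 2.3.3 and matplotlib 3.10.9 were used. Scripts were tested on simulated data. Alternatives changed the filter, the summary of probe sets, the normalization, the fold, the variance model, the arrays in the fit, the replicate number as a block, the class of the array and the test. 75 list genes were not in the annotation used here.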

Additional observations from a re-analysis of the deposited data

Results flagged for a closer look

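Gaps within the 4 other hippocampus arrays were examined for 35 genes and 24 lists, where chance alone gives such a gap in about 1 in 20 groups. *Cst6* on KO 1 was 8.75, against 7.75 to 7.88 on HET 1, HET 2 and WT 1, and the gap took 0.866 of the range. The mean of the border macrophage list on KO 1 was 4.48, against 5.34 to 5.44 on the other 3, and that of the microglia list was 3.82, against 6.67 to 6.96. KO 1 is the only Csf1r -/- array of the 4.

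Outside the named genes, 144 of 12493 probe sets with no gene symbol (1.15%) were higher on the choroid plexus arrays by 1 or more without overlap, and 135 were lower. The largest of these differences was 4.80, with 7.84 on KO 2 and 8.26 on WT 2, against 2.99 to 3.53 on the other 4 arrays.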

How the results depend on the processing

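The number of genes higher on the choroid plexus arrays was 158. It was 324 and 46 at log2 differences of 0.58 and 2, and 119 within genotype only. Leaving out each hippocampus array gave 147 to 235 higher genes, all with the 20 named genes, and 43 to 275 lower genes (44 with all arrays). The lower genes were 279 at 0.58, 1 at 2 and 18 within genotype only. With values under an intensity of 20 set to 20, an alternative chosen after seeing the data, 114 were higher and 33 lower. With quantile normalization repeated, 203 were higher, and 156 of the 158 were among them. For the 35 named genes, 390 of 420 recomputed differences moved by less than the spread between arrays, and none changed sign.

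Genes lower in KO than in WT (64) became 34 with the 6 hippocampus arrays alone, and 0 by the methods' t-test after adjustment (406 at unadjusted p). Genes higher in KO (1) became 3 with the class of the array or without the 2 choroid plexus arrays, 0 with the 6 hippocampus arrays alone, with or without the class, 9 with quantile normalization repeated, and 0 and 68 by the t-test after and before adjustment. Leaving out each KO or WT array gave 33 to 268 lower and 2 to 11 higher genes, the extremes of the lower being without WT 1 and without KO 1. Against littermates (78 lower, 3 higher), the higher genes were 1 without the 2 choroid plexus arrays and 6 with quantile normalization repeated, and leaving out each array gave 57 to 262 lower and 0 to 26 higher genes, the most without KO 1. In each fit with 1 array left out, the group with 1 array left is assumed to vary like the others.

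With the replicate number as a block, 57 genes were lower and 0 higher in KO than in WT, and 68 and 0 against littermates. The deviations of same-numbered arrays correlated at 0.447 between KO and WT, -0.04 between KO and HET and 0.05 between HET and WT, and that of KO and WT was 0.194 without the 158 and 44 genes. Since 2 of the 3 were near 0 and the labels do not tie numbers to rats, the numbers were not taken to pair the samples. The cause of these changes was not tested. The signal of *Ttr* near the top of the scale limits what its difference shows. So do values below an intensity of 20 on all 4 other arrays for 58 of the 158 genes. Of these 58, 19 passed the filter only on the choroid plexus arrays.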
